A study of Mus musculus with 81 samples.

Results

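TCRBJ02-01 to TCRBJ02-05 are the first 5 joining (J) segments of the J2 cluster of the mouse T cell receptor beta (TCRβ) locus, and they were taken from all 81 libraries as the rows whose resolved J gene carries one of these names. They make up 5 of the 14 J segments listed and 253712 of 581514 rows, where 1 row is 1 nucleotide rearrangement in 1 library. The 5 segments held 221297 of the 613408 productive (In) templates that were kept and 83128 of the 196093 out-of-frame (Out) rearrangements. A template is 1 rearranged gene copy as counted by the assay. Templates of 2 productive sequences were left out of all In counts: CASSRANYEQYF, the beta chain of the transferred OT-1 T cells, which uses TCRBJ02-07, and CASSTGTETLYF, the sequence of the tumor line, which uses TCRBJ02-03. Both are given as the amino acids of complementarity-determining region 3 (CDR3), the stretch of the receptor that the J segment helps to encode.

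The libraries were made from genomic DNA with the immunoSEQ assay, a bias-controlled multiplex PCR over the CDR3. All mice were Pep Boy (CD45.1) animals bearing or challenged with EG7.OVA, an ovalbumin (OVA) expressing derivative of the EL4 T cell lymphoma, and all mice had received OT-1 cells, whose transgenic receptor binds an OVA peptide. The engineered cells, mRBC-OVA-4-1BBL-IL-12, are mouse red cells that carry the OVA peptide, the costimulatory ligand 4-1BBL and the cytokine IL-12. In the treatment experiment, 15 tumor-bearing mice were given 1E6 OT-1 cells and then mRBC-CTRL cells at 1E9 (mRBC-CTRL mice), the engineered cells at 2.5E8 (2.5e8 mice) or at 1E9 (1e9 mice). Blood was sampled shortly after OT-1 transfer on day 0 and again on day 7, when the tumor was taken (n = 5 libraries per group, but 4 for 1e9 blood on day 0 and for mRBC-CTRL blood on day 7). In the rechallenge experiment, 7 mice that had been cured with the engineered cells at 2.5E8, given together with 1E6 OT-1 cells, were bled on days 65 and 73, around a challenge with EG7.OVA, and later before and after a challenge with EL4. Age-matched naive mice (n = 5) received 5E5 OT-1 cells and were bled on days 65 and 73. In 1 library, that of cured mouse 2 on day 73, the title names another mouse than its animal code, and the code was followed. The OT-1 CDR3 was at 0% of In templates of this mouse in its first 3 bleeds, unlike in cured mouse 1, in which it held between 2.62% and 32.3%.

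In a developing T cell a diversity (D) segment is first joined to a J segment and a variable (V) gene is then joined to the DJ unit, with bases trimmed from the ends and random (N) bases added at each junction. A D segment can join only a J segment that lies beyond it, so both D segments can reach the J2 cluster. An Out rearrangement encodes no receptor chain and is carried by a cell whose other allele is productive, so that its J segment was not chosen by the receptor it would have made. In the RefSeq annotation (GRCm38.p6) the order along the locus is Trbd1, Trbj1-1 to Trbj1-7, Trbd2, Trbj2-1 to Trbj2-5, the pseudogene Trbj2-6 and Trbj2-7.

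The ends of the 5 segments differ in sequence and in how far they were trimmed. The untrimmed 5′ end of each is shown as read from rearrangements with no J base deleted, down to the last base of the read. Capitals mark the bases up to the median number deleted among In rearrangements, and TCRBJ02-07 is added for comparison.
TCRBJ02-01: TAActatgctgagcagttc
TCRBJ02-02: CAaacaccgggcagctctac
TCRBJ02-03: Agtgcagaaacgctgtat
TCRBJ02-04: Agtcaaaacaccttgtac
TCRBJ02-05: AACcaagacacccagtac
TCRBJ02-07: CTCCtatgaacagtac
TCRBJ02-01 lost 3.44 ± 0.0948 bases on average (mean ± SD over 27 mice) and only 13.3% ± 1.12 of its In rearrangements kept the whole end. TCRBJ02-03 lost 1.48 ± 0.0641 bases and kept its end in 46.5% ± 1.70. TCRBJ02-04 kept its end in 38.4% ± 2.37, TCRBJ02-02 in 25.3% ± 1.98 and TCRBJ02-05 in 18.9% ± 1.07. Among the 5, TCRBJ02-02 had the longest untrimmed end shown, at 20 bases, and TCRBJ02-03, TCRBJ02-04 and TCRBJ02-05 the shortest, at 18 bases. The mean number of N bases between D and J was between 1.56 for TCRBJ02-02 and 1.92 for TCRBJ02-03, a narrower range than that of the trimming.

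The libraries held between 482 and 23605 kept In templates (median 6295), the lowest being the day 7 blood of 1e9 mouse 5. In that library TCRBJ02-03 rested on 18 templates and TCRBJ02-04 on 22. Shares add up to a whole, so that fewer templates of 1 segment and more of the others cannot be told apart. All 5 segments passed the filter on low shares, as did 12 of the 14 segments.

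In blood sampled before treatment and in the rechallenge experiment the 5 segments kept similar levels, with some differences between groups. The mean of TCRBJ02-01 was higher in each day 0 group than in any rechallenge group, although library values overlapped. In 2.5e8 mice on day 0 the 5 together ranged from 35.1% to 41.6% between libraries. In day 0 blood of mRBC-CTRL mice TCRBJ02-01 made up 9.61% ± 0.617 of In templates (n = 5), TCRBJ02-02 4.90% ± 0.178, TCRBJ02-03 6.94% ± 0.432, TCRBJ02-04 6.40% ± 0.122 and TCRBJ02-05 9.23% ± 0.259, which is 37.1% ± 0.551 together. Over the 6 rechallenge groups the means lay between 8.31% and 9.48% for TCRBJ02-01, between 4.68% and 4.88% for TCRBJ02-02, between 6.67% and 6.97% for TCRBJ02-03, between 5.98% and 6.53% for TCRBJ02-04 and between 9.20% and 9.99% for TCRBJ02-05. TCRBJ02-02 had the lowest mean of the 5 in all 12 blood groups. TCRBJ02-01 and TCRBJ02-05 were the highest and changed places between groups. Their library values overlapped in 9 of the 12 blood groups, while TCRBJ02-01 lay above TCRBJ02-05 in all libraries of 1e9 mice on day 0 and below it in those of naive mice on day 73 and of cured mice after EL4. TCRBJ02-03 was above TCRBJ02-04 in 11 of the 12 blood groups, the exception being 1e9 mice on day 7, and their library values overlapped in all but cured mice on day 65 and 1e9 mice on day 0.

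**Figure D1:**
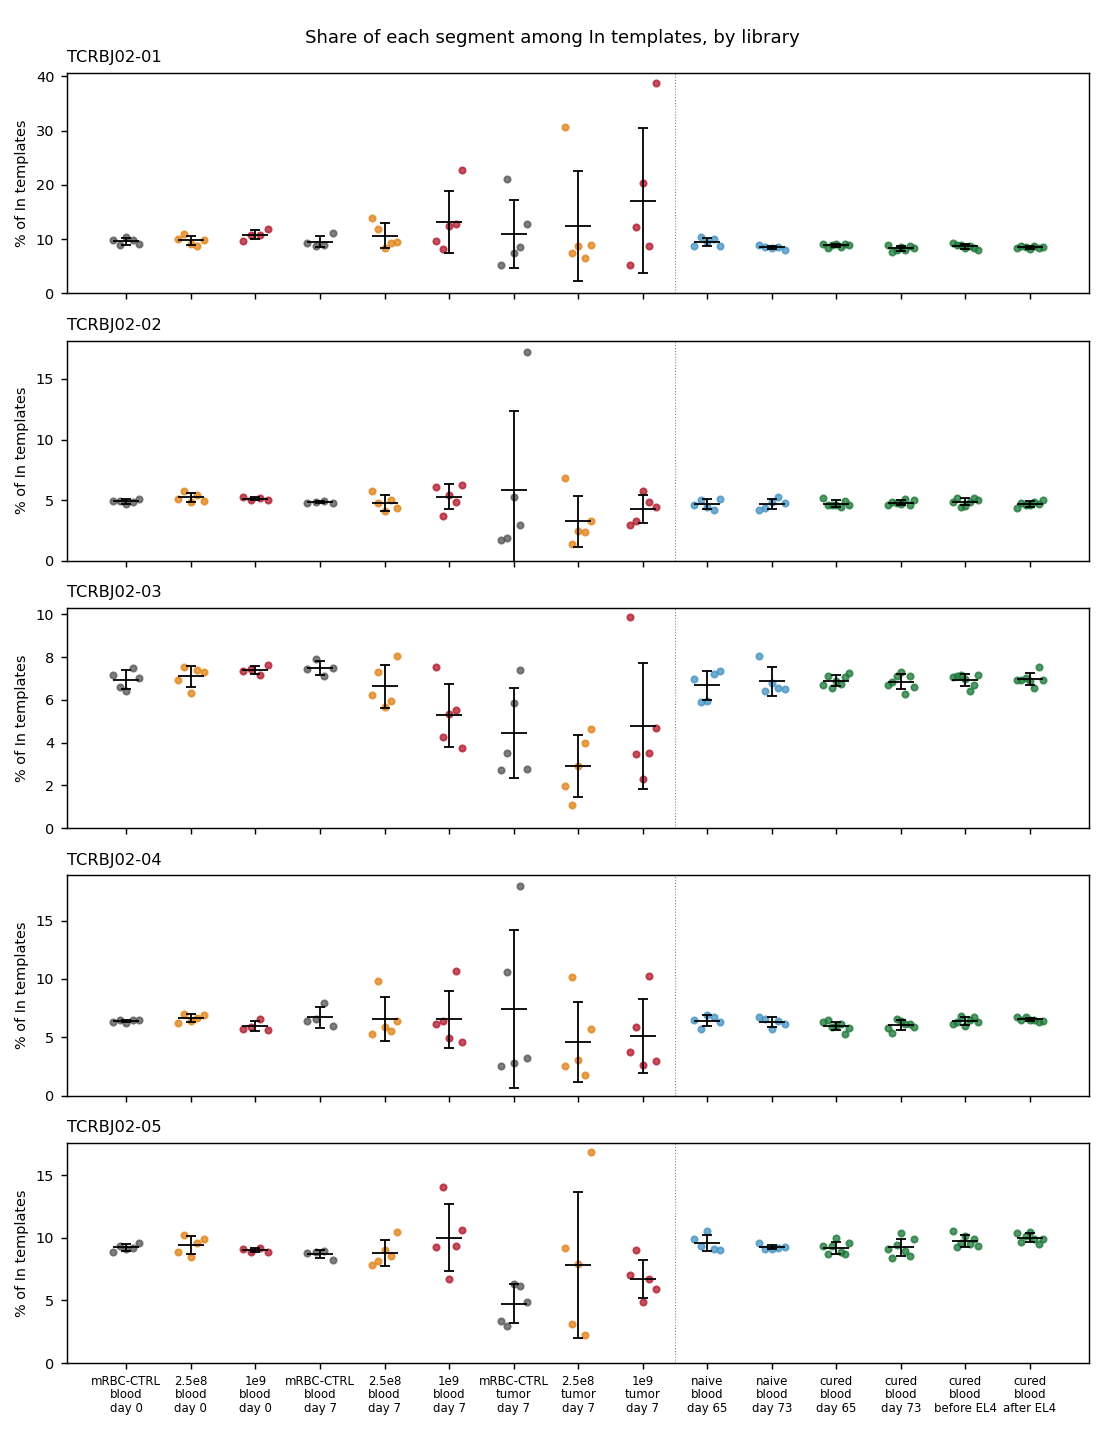
Share of each segment among In templates (vertical axis, %) in every library, grouped by arm, tissue and day, with the mean and SD of each group as black bars (the lower bar of TCRBJ02-02 in mRBC-CTRL tumors is cut at 0). Blood of day 0 and of the rechallenge experiment forms narrow groups, while single tumors reach 38.7% for TCRBJ02-01 and 18.0% for TCRBJ02-04.

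The number of templates behind a rearrangement also differed by segment. In blood, an In rearrangement of TCRBJ02-01 had 1.36 ± 0.330 templates (n = 66 libraries), against 1.19 ± 0.185 for TCRBJ02-02, 1.13 ± 0.10 for TCRBJ02-03, 1.08 ± 0.222 for TCRBJ02-04 and 1.08 ± 0.122 for TCRBJ02-05. The value for TCRBJ02-07 was 2.07 ± 0.193. Only 27.1% of TCRBJ02-07 rearrangements rested on 1 template, against 77.0% for TCRBJ02-01, 85.5% for TCRBJ02-02, 89.8% for TCRBJ02-03, 97.4% for TCRBJ02-04 and 95.8% for TCRBJ02-05. Shares by template and by rearrangement are therefore not interchangeable, and both are given where they lead to different calls.

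The shares in tumors were compared with those in day 7 blood of the same mouse (14 mice) to ask whether T cells other than OT-1 used the segments differently at the tumor. TCRBJ02-03 was lower in the tumor, and the other 4 segments did not pass the test. In mRBC-CTRL mice 2 to 5 the TCRBJ02-03 share was 7.44%, 7.91%, 7.12% and 7.48% in blood and 3.51%, 5.87%, 7.38% and 2.78% in the tumor. In 2.5e8 mice 1 to 5 it was 6.22%, 7.29%, 5.68%, 5.95% and 8.06% in blood and 1.99%, 1.07%, 2.91%, 3.98% and 4.64% in the tumor. In 1e9 mice 1 to 5 it was 7.52%, 4.26%, 5.35%, 5.52% and 3.73% in blood and 9.85%, 3.49%, 2.30%, 3.54% and 4.70% in the tumor. Blood and tumor did not overlap in 2.5e8 mice, whereas in the other arms they did, and the tumor was higher in mRBC-CTRL mouse 4 and in 1e9 mice 1 and 5. The mean within-mouse difference of TCRBJ02-03 was -2.25 percentage points (SD 2.33, lower in 11 of 14 mice, sign-flip permutation test, 2-sided, adjusted p = 0.0286 over 12 segments). Of the 5 segments 1 was thus called, beside 16.7% of all J segments tested. By arm the difference was -2.60 in mRBC-CTRL, -3.72 in 2.5e8 and -0.50 in 1e9 mice.

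The TCRBJ02-03 call was lost when large rearrangements of all J segments were counted once or left out. The part of large TCRBJ02-03 rearrangements in this was not tested. Counted by unique rearrangements, the TCRBJ02-03 difference was -0.465 (adjusted p = 0.483), and without rearrangements of at least 1% of their library it was -0.425 (adjusted p = 0.666). It was also lost without mRBC-CTRL mouse 2 (adjusted p = 0.0574), without 2.5e8 mouse 2 (0.059) or without 1e9 mouse 3 (0.0549). Rearrangements close to the 2 sequences left out, which could carry misread templates of the TCRBJ02-03 tumor sequence, numbered 22 templates in all and left the difference at -2.25 when removed.

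TCRBJ02-05 was lower in the tumor in 12 of 14 mice (mean difference -2.55 percentage points, SD 3.27), with an adjusted p of 0.0616 in the same sign-flip permutation test. The exceptions were 2.5e8 mouse 1, with 7.85% in blood and 9.14% in the tumor, and 2.5e8 mouse 5, with 10.5% and 16.8%. Without the first of these mice the TCRBJ02-05 difference was called at -2.85 (adjusted p = 0.047, sign-flip permutation test), and without the second at -3.23 (adjusted p = 0.006). It was also called by edgeR (log2 difference -0.62, adjusted p = 0.0136), on the log2 scale (adjusted p = 0.0157) and without pairing by mouse (adjusted p = 0.0452). With any other single mouse left out it was not called (adjusted p up to 0.122, sign-flip permutation test). Nor was it called without rearrangements of at least 1% of their library (-0.489, adjusted p = 0.584, same test). TCRBJ02-01 rose to 38.7% in the tumor of 1e9 mouse 5 and to 30.6% in that of 2.5e8 mouse 1, yet was higher in only 7 of 14 tumors than in blood, with a mean difference of 2.87 (SD 7.34, adjusted p = 0.417). TCRBJ02-02 differed by -0.330 (adjusted p = 0.945) and TCRBJ02-04 by -0.646 (adjusted p = 0.673). Without mRBC-CTRL mouse 5 TCRBJ02-02 was called lower in the tumor (-1.32, adjusted p = 0.0406), and without mRBC-CTRL mouse 4 the TCRBJ02-04 difference was -1.47 (adjusted p = 0.0952). Counted by unique rearrangements, however, TCRBJ02-01 was higher in tumors by 1.65 (adjusted p = 0.0232) and TCRBJ02-05 lower, at -0.91 percentage points (adjusted p = 0.0232).

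**Figure D2:**
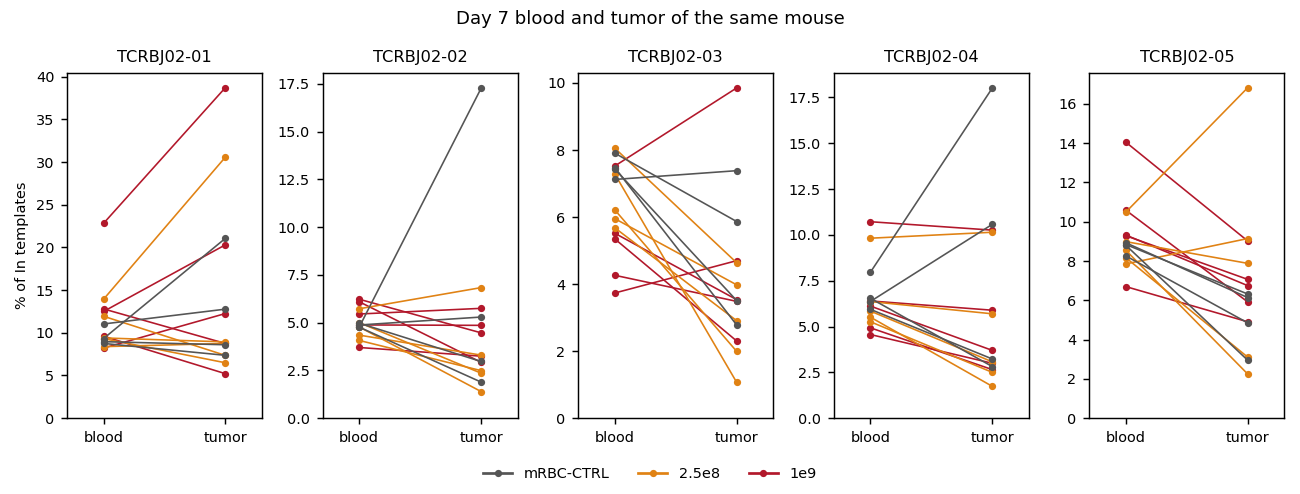
Share of In templates (vertical axis, %, one scale per segment) in day 7 blood and in the tumor, with a line for each of the 14 mice with both libraries, coloured by arm. The TCRBJ02-03 lines fall in 11 mice and the TCRBJ02-05 lines in 12, whereas TCRBJ02-01 rises steeply in a few mice.

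The spread between tumors came with single large rearrangements. Of the 176 rearrangements that reached 1% of their tumor library, 63 used 1 of the 5 segments. These were 24 with TCRBJ02-01, 10 with TCRBJ02-02, 8 with TCRBJ02-03, 8 with TCRBJ02-04 and 13 with TCRBJ02-05. In blood 17 such rearrangements used 1 of the 5, and tumor and blood together held 236 of any J segment. Among kept In rearrangements of any size, the 5 segments made up 167406 of 377937 rows. The largest of each segment was followed through the libraries of its mouse. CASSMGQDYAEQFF, with TCRBV19-01 and TCRBJ02-01, held 29.2% of the tumor of 1e9 mouse 5 (1131 templates) and 13.7% of its day 7 blood (66 of 482 templates). On day 0 it was at 0 of 6295 templates, which allows a share of up to 0.0477%. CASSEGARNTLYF, with TCRBV05-01 and TCRBJ02-04, held 14.4% of the tumor of mRBC-CTRL mouse 4, 1.37% of its day 7 blood and 0.0137%, or 1 template, of its day 0 blood. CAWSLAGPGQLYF, with TCRBV31-01 and TCRBJ02-02, held 10.8% of the tumor of mRBC-CTRL mouse 5 and 0.50% of its day 7 blood, and was at 0 of 4983 templates on day 0 (up to 0.0602%). Each of these had a lower share in blood than in the tumor, and was rare or not seen on day 0. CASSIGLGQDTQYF, with TCRBV19-01 and TCRBJ02-05, held 9.90% of the tumor of 2.5e8 mouse 5, 0.883% of its day 7 blood and 0 of 9821 templates on day 0 (up to 0.0305%). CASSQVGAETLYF, with TCRBV05-01 and TCRBJ02-03, was the smallest of the 5 at 3.93% of the tumor of 1e9 mouse 1 and 0.960% of its day 7 blood, a mouse with no day 0 library. Limits at a count of 0 are 3 templates of the total and cover counting error only.

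The sequences found in the most mice were different ones and stayed rare. They were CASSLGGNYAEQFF for TCRBJ02-01 (22 of 27 mice), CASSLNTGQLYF for TCRBJ02-02 (19 mice), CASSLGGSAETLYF for TCRBJ02-03 (24 mice), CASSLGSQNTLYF for TCRBJ02-04 (21 mice) and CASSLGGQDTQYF for TCRBJ02-05 (23 mice). Each was made by between 28 and 54 different nucleotide rearrangements. None exceeded 0.0763% of any library. Few CDR3 sequences were so widely shared, since between 13 (TCRBJ02-02) and 58 (TCRBJ02-05) per segment were found in at least 14 mice, out of 14766 and 28061 CDR3 sequences.

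The 2 highest TCRBJ02-01 tumors and the fourth highest each held a large TCRBV19-01 rearrangement of the same make. This group was chosen after its values were seen and is given as a description. Its CDR3 sequences have 14 residues, start with CASSM or CASSI, continue with GQ and any pair of residues, and end with AEQFF. The 3 most abundant are shown as read, because different D and N bases lead to nearly the same CDR3. Capitals mark the CDR3 from its first base, at position 49 of the 87-base read, to the end of the read.
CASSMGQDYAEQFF, 1e9 mouse 5: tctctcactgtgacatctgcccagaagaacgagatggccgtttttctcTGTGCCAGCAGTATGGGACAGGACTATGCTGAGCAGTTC
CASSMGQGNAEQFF, 2.5e8 mouse 1: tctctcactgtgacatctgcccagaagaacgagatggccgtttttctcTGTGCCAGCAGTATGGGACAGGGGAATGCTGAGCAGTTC
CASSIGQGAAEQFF, 1e9 mouse 3: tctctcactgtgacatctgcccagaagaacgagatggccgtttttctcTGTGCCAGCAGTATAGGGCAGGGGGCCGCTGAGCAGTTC
All 3 were assigned to TCRBD01, and 2, 5 and 7 bases of TCRBJ02-01 were deleted in the order shown. The first has no N base, the second 1 and the third 3.

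CDR3 sequences of this make were found in 23 libraries of 17 mice, as 15 amino acid sequences from 35 nucleotide rearrangements. Together they held 29.4% of the tumor and 13.9% of the day 7 blood of 1e9 mouse 5. In 2.5e8 mouse 1 they held 25.5% of the tumor, 4.39% of day 7 blood and 0.0539% (4 templates) of day 0 blood. In 1e9 mouse 3 they held 9.98% of the tumor and 2.62% of day 7 blood. In every other library their share was at most 0.0628%. All 3 mice had received mRBC-OVA-4-1BBL-IL-12, and 7 of the 10 mice so treated did not have such a share. Among the 63 large rearrangements of the 5 segments in tumors, 16 (25.4%) used TCRBV19-01, in 12 mice, 4 per arm. In blood of other days than day 7, TCRBV19-01 made up 7.35% ± 0.626 of the rearrangements of the 5 segments (n = 52 libraries). That value is from another tissue and has no lower size limit, so it is no direct background for the 25.4%. Large TCRBV19-01 rearrangements were not limited to the 5 segments. With TCRBJ02-07, 1 held 36.3% of the tumor of 2.5e8 mouse 2. TCRBV19-01 made up 10.5% ± 15.4 of TCRBJ02-07 templates in mRBC-CTRL, 28.5% ± 24.3 in 2.5e8 and 16.7% ± 15.3 in 1e9 tumors. Whether the 5 segments differed in this from other J segments was not tested.

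**Figure D3:**
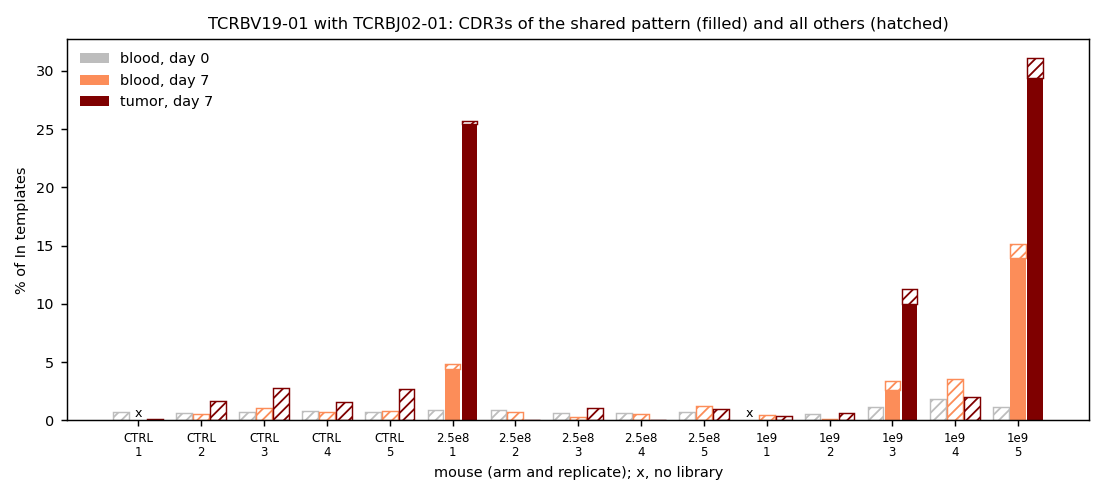
Share of In templates (vertical axis, %) held by TCRBV19-01 with TCRBJ02-01 in each mouse of the treatment experiment, in day 0 blood, day 7 blood and tumor, with the CDR3 sequences of the shared make filled and all others hatched. The filled bars stand out in 2.5e8 mouse 1 and in 1e9 mice 3 and 5, where they reach 25.5%, 9.98% and 29.4% of the tumor.

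The arms were compared with one another to ask whether treatment moved the J use of T cells other than OT-1. In tumors, none of the 5 segments passed the test between 1e9 and mRBC-CTRL mice (exact permutation test, 2-sided, 0 of 5 called, beside 0% of the 12 J segments tested, 0 of 5 at an unadjusted p under 0.05 and 0 of 5 by edgeR). The TCRBJ02-01 share was 5.21%, 12.3%, 20.3%, 8.75% and 38.7% in 1e9 tumors and 5.27%, 21.1%, 7.36%, 8.60% and 12.8% in mRBC-CTRL tumors. The 38.7% tumor lay above all mRBC-CTRL tumors while the others overlapped with them, and the mean difference of 6.04 was smaller than the SD of 13.3 between 1e9 tumors. TCRBJ02-05 was at 6.73% ± 1.53 in 1e9 and at 4.72% ± 1.55 in mRBC-CTRL tumors (difference 2.01, exact p = 0.0794, adjusted p = 0.413). In tumors of 2.5e8 mice TCRBJ02-05 ranged from 2.24% to 16.8%. Between 2.5e8 and mRBC-CTRL tumors 0 of 5 segments were called (0% of the 12 tested, 0 of 5 unadjusted, 0 of 5 by edgeR), with differences between 1.41 and 3.12 percentage points in size.

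In day 7 blood 0 of 5 segments were called for 1e9 against mRBC-CTRL mice (0% of the 12 tested) and 0 of 5 for 2.5e8 mice (0%), with 0 of 5 by edgeR in each. TCRBJ02-03 alone had an unadjusted p under 0.05. It was at 5.28% ± 1.46 in 1e9 mice (n = 5) and at 7.49% ± 0.323 in mRBC-CTRL mice (n = 4), a difference of -2.21 (exact permutation test, p = 0.0397, adjusted p = 0.476). The change of TCRBJ02-03 from day 0 to day 7 within a mouse was negative in 4 of 4 1e9 mice, with a mean of -2.69 (SD 1.01), and positive in 3 of 4 mRBC-CTRL mice, with a mean of 0.603 (SD 0.774). The difference between those changes was -3.29 (p = 0.0286, the smallest that an exact test of 4 against 4 mice can give, adjusted p = 0.343). Of the 5 segments 0 were called in this test, beside 0% of the 12, while edgeR's quasi-likelihood test called TCRBJ02-03 alone, at a log2 difference of -0.70 (adjusted p = 0.00977). The OT-1 CDR3 held between 48.1% and 79.5% of In templates in 1e9 blood on day 7, which left between 482 and 6579 kept templates per library, against 5002 to 10699 in mRBC-CTRL blood. The part of this in the TCRBJ02-03 value was not tested.

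Over the 13 mice with both bleeds, 0 of 5 segments passed the test between day 0 and day 7 (sign-flip permutation test, beside 8.33% of the 12 tested, 0 of 5 unadjusted and 0 of 5 by edgeR). The mean changes lay between 0.0618 percentage points in size for TCRBJ02-05 and 1.31 for TCRBJ02-01, with SDs of 1.86 and 3.29. Before treatment, on day 0, 0 of 5 segments were called against mRBC-CTRL in 1e9 mice (0% of the 12 tested, 0 of 5 unadjusted and by edgeR) and in 2.5e8 mice (0%, 0 of 5 and 0 of 5). The largest of these differences was 1.22 for TCRBJ02-01 in 1e9 mice, at 10.8% ± 0.897 (n = 4) against 9.61% ± 0.617 (n = 5).

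In the rechallenge experiment the 5 segments moved by less than 1 percentage point in every comparison. From day 65 to day 73 TCRBJ02-01 was lower in 7 of 7 cured mice, at 8.89% ± 0.289 before and 8.31% ± 0.468 after, a mean change of -0.587 (SD 0.296, exact sign-flip test, p = 0.0156, the smallest 7 pairs can give, adjusted p = 0.188). None of the 5 segments was called in that test (0% of the 12 tested), and edgeR called TCRBJ02-01 alone, at a log2 change of -0.10 (adjusted p = 0.0465). In the naive mice TCRBJ02-01 was at 9.48% ± 0.793 on day 65 and 8.49% ± 0.293 on day 73. With 5 pairs an exact sign-flip test cannot go below 0.0625, and 0 of 5 segments were called there by either test (0%). The change from day 65 to day 73 did not differ by the test between cured and naive mice for any of the 5 segments (exact permutation test, 0 of 5 called, beside 8.33%). For TCRBJ02-01 the difference between those changes was 0.397, the cured mice having the smaller fall (adjusted p = 0.633).

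Around the EL4 challenge the 5 segments differed by at most 0.246 percentage points (0 of 5 called, 0% of the 12 tested). Between day 73 and the bleed before EL4 the largest difference was 0.512, for TCRBJ02-05 (0 of 5 called, 0%). Cured and naive mice differed by at most 0.584 on day 65 (0 of 5 called, beside 16.7%) and by at most 0.271 on day 73 (0 of 5, beside 0%). In these 4 comparisons and in that of the changes, 0 of 5 segments had an unadjusted p under 0.05 and 0 of 5 were called by edgeR.

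In and Out rearrangements of the same mouse were then compared, by unique nucleotide rearrangements pooled over its libraries, to ask how J use among receptors that can be expressed differs from that among those that cannot. The mice held between 3529 and 36154 In and between 1868 and 19014 Out rearrangements. The 5 segments together made up 44.4% ± 0.651 of In and 42.8% ± 1.5 of Out rearrangements (n = 27). TCRBJ02-05 was at 11.9% ± 0.487 of In and 10.1% ± 0.57 of Out, and was higher among In in 27 of 27 mice (difference 1.83, SD 0.639). TCRBJ02-04 was at 8.28% ± 0.292 and 7.31% ± 0.547, higher among In in 25 mice (difference 0.966, SD 0.571). TCRBJ02-01 went the other way, at 10.03% ± 0.534 of In and 10.9% ± 0.724 of Out, lower among In in 26 mice (difference -0.873, SD 0.515). These 3 were called (sign-flip permutation test, adjusted p = 1.71e-05 each, from the smallest p that 100000 flips can give), beside 75% of the 12 segments tested. TCRBJ02-02 differed by -0.134 (adjusted p = 0.12) and TCRBJ02-03 by -0.188 (adjusted p = 0.104). In the treatment and the rechallenge experiment taken apart, the differences were 1.68 and 2.02 for TCRBJ02-05 and 0.836 and 1.13 for TCRBJ02-04, and -0.776 and -0.995 for TCRBJ02-01. TCRBJ02-03 was called lower among In in the treatment experiment alone (-0.479, adjusted p = 0.00132, sign-flip permutation test). In the rechallenge experiment its difference was 0.177 (adjusted p = 0.191), and in blood libraries only it was -0.0266 (adjusted p = 0.817). By templates in place of unique rearrangements, the calls of TCRBJ02-05 (0.196, adjusted p = 0.98), TCRBJ02-04 (0.408, adjusted p = 0.776) and TCRBJ02-01 (-0.166, adjusted p = 0.98) were lost. TCRBJ02-03 was then called, at -1.10 (adjusted p = 0.0319). Shares sum to a whole, and TCRBJ02-07 had the largest difference of the 12 segments, at 19.2% ± 0.680 of In and 24.3% ± 1.07 of Out, lower among In in 27 of 27 mice (difference -5.14). With TCRBJ02-07 left out of the total, an alternative chosen after seeing the data, all 5 segments were called. How many of the other J segments were called in this alternative is not given, so the count has no background here. TCRBJ02-01 (-1.99), TCRBJ02-02 (-0.659) and TCRBJ02-03 (-0.954) were then lower among In and TCRBJ02-05 (1.41) was higher, with an adjusted p of 1.57e-05 each. TCRBJ02-04 was higher by 0.583 (adjusted p = 0.000674).

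Part of the Out rearrangements differed by 1 inserted or deleted base from an In rearrangement of the same library. This was the case for 32.2% of the Out rearrangements of TCRBJ02-01, 25.5% of TCRBJ02-02, 29.0% of TCRBJ02-03, 14.7% of TCRBJ02-04 and 21.9% of TCRBJ02-05, against 53.5% for TCRBJ02-07 and 27.5% over all segments. When they were left out, an alternative chosen after seeing the data, TCRBJ02-05 was still higher among In in 27 of 27 mice, by 1.06 (adjusted p = 2.4e-05). The TCRBJ02-04 difference turned to -0.291 (adjusted p = 0.0683) and that of TCRBJ02-01 was -0.0456 (adjusted p = 0.674). TCRBJ02-02 was then called, at -0.27 (adjusted p = 0.00492), and TCRBJ02-03 was not, at 0.0942 (adjusted p = 0.471). Of the 5, TCRBJ02-05 was therefore the one whose call and direction were the same with and without those Out rearrangements.

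**Figure D4:**
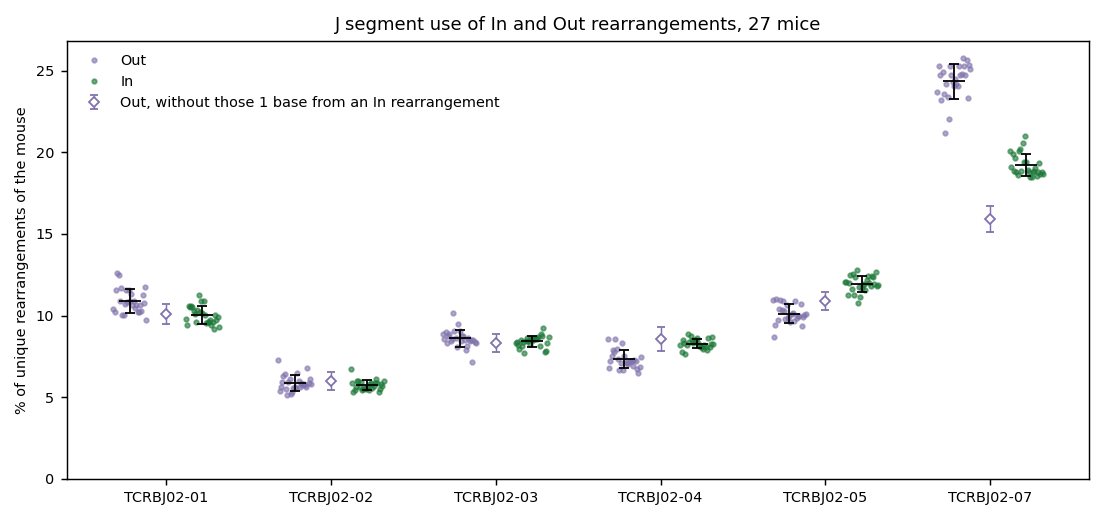
Share of each segment among unique rearrangements of a mouse (vertical axis, %), with a point per mouse for Out and In (n = 27), the mean and SD as black bars, and as open diamonds the mean and SD of Out without rearrangements 1 base from an In rearrangement. TCRBJ02-05 is higher among In than in both Out counts, whereas the diamonds of TCRBJ02-01 and TCRBJ02-04 move to the In values or past them.

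CDR3 length followed the J segment. Among In rearrangements the mean length was 44.1 ± 0.176 nucleotides for TCRBJ02-02, 43.5 ± 0.180 for TCRBJ02-03, 42.8 ± 0.22 for TCRBJ02-01, 42.5 ± 0.243 for TCRBJ02-04 and 41.9 ± 0.149 for TCRBJ02-05 (n = 27 mice). TCRBJ02-07, which has the shortest end, had 39.9 ± 0.184. In rearrangements were shorter than Out rearrangements, with differences between -0.881 (TCRBJ02-05) and -0.975 nucleotides (TCRBJ02-03), in 27 of 27 mice for each of the 5 (sign-flip permutation test, adjusted p = 1e-05, the smallest that 100000 flips can give). All 5 were called, as were 100% of the 12 segments tested, and the difference of TCRBJ02-07 was -0.803. The alternatives were blood only, each experiment apart, and leaving out Out rearrangements 1 base from an In rearrangement. Under these the differences of the 5 lay between -1.22 (TCRBJ02-03) and -0.542 (TCRBJ02-02), all still called. In lengths are multiples of 3 nucleotides by definition and Out lengths are not, and the part of this in the difference was not tested. The N bases at both junctions were fewer among In rearrangements: for TCRBJ02-05 they were 1.74 between V and D and 1.73 between D and J, against 2.01 and 2.07 among Out. Between tumor and day 7 blood the template-weighted mean length of 0 of 5 segments was called (0% of the 12 tested). TCRBJ02-02 had the only unadjusted p under 0.05, at 44.1 ± 0.609 in blood and 43.3 ± 1.38 in the tumor (difference -0.848, sign-flip permutation test, 14 mice, p = 0.0239, adjusted p = 0.287). Counted by unique rearrangements, a setting added after seeing the data, tumor CDR3s were longer for TCRBJ02-01 by 0.618 (adjusted p = 0.00144), TCRBJ02-05 by 0.573 (0.00456) and TCRBJ02-03 by 0.504 nucleotides (0.00716). The share of all 12 segments called in this setting is not given, so the longer CDR3s cannot be read as particular to the 5.

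The D segment was read from the rearrangements with a D call, which were 79.8% to 84.3% of the In rearrangements of the 5 segments. TCRBD02, the D segment next to the J2 cluster, made up 58.9% ± 3.05 of calls for TCRBJ02-01, 49.5% ± 2.55 for TCRBJ02-02, 61.8% ± 2.22 for TCRBJ02-03, 60.6% ± 2.26 for TCRBJ02-04 and 59.6% ± 2.32 for TCRBJ02-05 (n = 27 mice). TCRBJ02-02 stood apart from the others. Against the 59.4% ± 2.05 of TCRBJ02-07, TCRBJ02-02 was lower in 27 of 27 mice (difference -9.84 percentage points, adjusted p = 1.67e-05, sign-flip permutation test). TCRBJ02-03 was higher by 2.37 (adjusted p = 2.86e-05) and TCRBJ02-04 by 1.25 (adjusted p = 0.027), so that 60% of the 5 segments tested were called. With rearrangements without a D call in the denominator, TCRBJ02-04 was instead lower (difference -2.06, adjusted p = 0.000743) and TCRBJ02-03 was no longer called. Among Out rearrangements TCRBD02 was at 56.8% ± 4.18 for TCRBJ02-02 and between 62.2% and 67.4% for the other 4, against 75.0% ± 2.10 for TCRBJ02-07, and all 5 were called lower (100%). Without the Out rearrangements 1 base from an In rearrangement only TCRBJ02-02 remained called, at 44.2% ± 4.31 against 55.7% ± 3.13. TCRBJ02-02 was thus the segment with the lowest TCRBD02 share in each of these 3 sets.

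D calls rest on short matches. TCRBD02 was also called in 9.33% of In and 11.6% of Out rearrangements of the J1 cluster, which lies before Trbd2 on the chromosome. In tumors the TCRBD02 share of TCRBJ02-01 was higher than in day 7 blood, at 65.5% ± 7.57 against 59.4% ± 3.61, in 10 of 14 mice (difference 6.12, SD 7.10, adjusted p = 0.0185). It was the only one of the 5 called, beside 33.3% of the 6 J2 segments tested, the other being TCRBJ02-07. The 3 large TCRBV19-01 rearrangements above carry TCRBD01, and unique rearrangements count each of them once.

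V genes were not paired evenly with the J segments. For each of 20 V genes, its share among rearrangements of a segment was compared with its share among all other J segments of the same mouse. Among In rearrangements 45 of the 100 pairs of the 5 segments were called, 20 higher and 25 lower, beside 55% of all 240 pairs (27.5% higher and 27.5% lower). Among Out rearrangements 21 of 100 were called, 8 higher and 13 lower, beside 39.2% of all pairs (19.2% higher and 20% lower). The difference between these shares was not tested. Among the 5, TCRBJ02-05 had the most called In pairs, 15 of 20, and TCRBJ02-02 the fewest, 5 of 20. Of the 100 pairs, 12 were called in both frames, and all 12 in the same direction. The frames are not independent here. Over all segments, 27.5% of Out rearrangements were 1 inserted or deleted base from an In rearrangement of the same library. The number of pairs called in both frames without these is not given, so the shared direction is a description only.

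TCRBJ02-05 had the pairs with the highest excess of the 5 among In rearrangements. TCRBV05-01 made up 7.66% of its In rearrangements and 6.27% of those of other segments (difference 1.39, SD 1.03, higher in 25 of 27 mice), and TCRBV12-02 4.59% and 3.23% (difference 1.36, SD 0.700, higher in 26). TCRBV01-01 and TCRBV20-01 were lower with TCRBJ02-05 (differences -0.797 and -0.706). Among Out rearrangements TCRBV12-02 was again higher with TCRBJ02-05, by 0.709, as was TCRBV04-01, by 1.18, while TCRBV29-01 and TCRBV01-01 were lower (-0.788 and -0.756). TCRBJ02-04 also had more TCRBV04-01 in both frames, by 1.23 among In (higher in 26 of 27 mice) and by 1.12 among Out (higher in 22). Its other named pairs were TCRBV13-02 (0.883), TCRBV31-01 (-0.829) and TCRBV29-01 (-0.772) among In, and TCRBV24-01 (1.06), TCRBV01-01 (-1.02) and TCRBV31-01 (-0.816) among Out.

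TCRBJ02-01 had an excess of TCRBV12-01 among In rearrangements, at 6.12% against 4.80% (difference 1.32, SD 1.02, higher in 25 of 27 mice), and a smaller one of TCRBV17-01 (0.325). TCRBV16-01 was lower with TCRBJ02-01 in both frames (-0.661 among In and -0.842 among Out), and TCRBV02-01 was lower among In (-0.479). Its Out rearrangements had more TCRBV13-02 (1.68, higher in 25 mice) and TCRBV19-01 (1.12, higher in 22) and less TCRBV24-01 (-0.565). For TCRBV19-01 with TCRBJ02-01 the difference among In was 0.278, with an adjusted p of 0.362, so the pair of the large tumor rearrangements was not called there. TCRBJ02-02 had the lowest single value among In, TCRBV13-02 at 9.58% against 11.2% (difference -1.64, SD 1.64, lower in 23 mice), with TCRBV31-01 also lower (-0.545), TCRBV17-01 higher by 0.854 and TCRBV15-01 higher by 0.49. Among Out, TCRBV31-01 and TCRBV01-01 were lower with TCRBJ02-02 (-0.75 and -0.667), and no V gene was called higher. TCRBJ02-03 had more TCRBV03-01 (0.934) and TCRBV05-01 (0.782) and less TCRBV26-01 (-0.931) and TCRBV29-01 (-0.670) among In. Its only called Out pair was TCRBV15-01, at 6.04% against 4.68% (difference 1.36, SD 1.96, higher in 20 mice). TCRBV15-01 is also the V gene of the tumor sequence that uses TCRBJ02-03, and the part of that sequence in the pair was not tested. Which of the named Out pairs stayed called without Out rearrangements 1 base from an In rearrangement is not given.

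**Figure D5:**
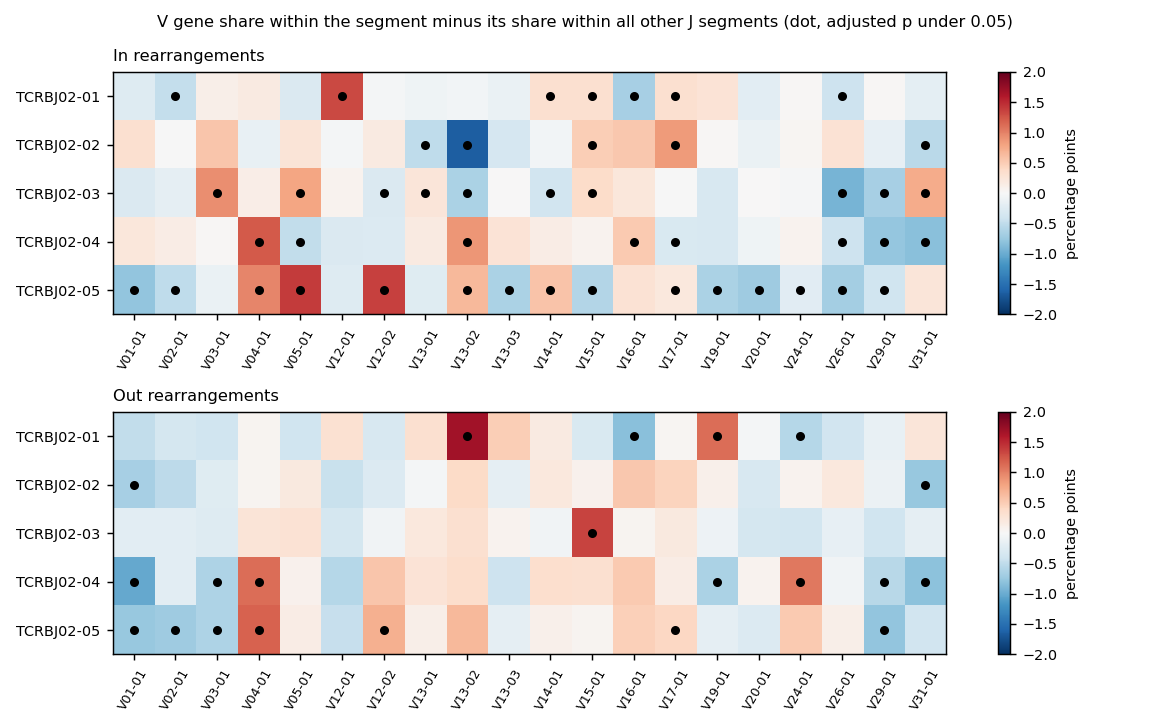
Difference between the share of each V gene (horizontal axis) within a segment and its share within all other J segments, in percentage points (colour), for In (top) and Out rearrangements (bottom), as the mean over 27 mice, with dots for pairs called after Benjamini-Hochberg adjustment. TCRBJ02-05 has 15 dots among In and 7 among Out, TCRBJ02-02 has 5 and 2.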

How the data were processed

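TCRβ CDR3 libraries of 81 samples were read from tables with 1 row per nucleotide rearrangement. Per the labels and methods, the authors' service amplified CDR3s from genomic DNA in a bias-controlled multiplex PCR, collapsed and filtered the sequences and exported them from the immunoSEQ analyzer 3.0. The deposited values were template counts, whole numbers per rearrangement, and the deposited frequency, a fraction of the library that was used here only to check the counts. Other deposited columns (gene calls, frame, CDR3 length, deleted and inserted bases) were used as given. The deposited data gave no genome build or gene coordinates, and the order of the segments was taken from the RefSeq annotation (GRCm38.p6).

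In templates without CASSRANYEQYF and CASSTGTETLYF were summed per J segment and library and expressed as percent of all kept In templates, segments with a mean share under 0.5% not being tested. In against Out, D and V comparisons used unique nucleotide rearrangements pooled per mouse (V pairing with at least 20 rearrangements of the segment and V genes of at least 1%). The mouse was the replicate. Paired values of the same animal were tested with a 2-sided sign-flip permutation test (exact below 10 mice, otherwise 100000 flips), groups with an exact permutation test, and p-values were adjusted by Benjamini-Hochberg over all segments or pairs tested, with calls at 0.05. edgeR 4.0.16 (R 4.3.3) was an alternative, with Python 3.11.15, pandas 2.3.3, NumPy 2.4.6, SciPy 1.17.1 and Matplotlib 3.10.9 used elsewhere. The scripts were tested on simulated data. Other alternatives were unique rearrangements, leaving out rearrangements of at least 1%, resolved J calls only, leaving out rearrangements within 2 mismatches of the sequences removed, keeping both of these, log2 with a pseudocount of 0.1%, no filter, other blocking, a minimum of 50 rearrangements, each experiment apart, blood only and leaving out each mouse. Alternatives on Out rearrangements 1 base from an In rearrangement, on TCRBJ02-07, on unweighted CDR3 length and on the D share between tissues were added after seeing the data.

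Libraries held 2355 to 77041 In templates before the removal. Intervals and limits cover counting error only, since the assay gives 1 library per sample. Mice of a group are separate animals. Named were, per segment, the CDR3 in the most mice, the largest rearrangement in any library and the V genes with the 2 largest called differences in each direction. The members and lists were chosen with earlier results of these data known.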

Additional observations from a re-analysis of the deposited data

Results flagged for a closer look

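In 4 of 75 combinations of a group and a segment, 1 library stood apart from the other libraries of its group by Dixon's criterion, of which chance flags about 1 in 20. TCRBJ02-01 made up 30.6% of In templates in the tumor of 2.5e8 mouse 1, against 6.49% to 8.93% in the other 4 tumors of that arm. TCRBJ02-02 made up 17.3% in the tumor of mRBC-CTRL mouse 5, against 1.71% to 5.29%. TCRBJ02-03 made up 8.03% of day 73 blood of naive mouse 1, against 6.41% to 6.77%. TCRBJ02-04 made up 9.82% of day 7 blood of 2.5e8 mouse 2, against 5.26% to 6.36%. The change of TCRBJ02-03 from day 0 to day 7 differed between 1e9 and mRBC-CTRL mice by -3.29 percentage points at an unadjusted p of 0.0286 in an exact permutation test of 4 against 4 mice (adjusted p = 0.343).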

How the results depend on the processing

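Counts are of the 5 segments called, and the share over all J segments is not given for the alternatives. Of these counts, 23 moved by more than 1.5 times while 146 did not, with 7 and 202 when single mice were left out. Tumor against day 7 blood gave 1 call, 2 by unique rearrangements, on the log2 scale, without the replicate block (unpaired) and by edgeR, 0 without rearrangements of at least 1%, 5 with both removed CDR3s kept, and 0 to 2 without each mouse in turn. Where 0 were called, keeping both CDR3s gave 1 for 1e9 and 1 for 2.5e8 against mRBC-CTRL tumors, and 5 each for 1e9 day 7 blood, the day 0 to day 7 change, cured mice from day 65 to 73 and from 73 to the bleed before EL4, cured against naive mice on day 73 and the change from day 65 to 73. edgeR gave 1 for the day 0 to day 7 change and 1 for cured mice from day 65 to 73, and day 65 cured against naive mice gave 0 to 1 without each mouse. In against Out gave 3 calls, 1 by templates, 5 without TCRBJ02-07 and 3 to 4 without each mouse. TCRBD02 among Out fell from 5 to 1 and V pairing among Out from 21 to 12 without rearrangements 1 base from In, and V pairing to 11 in the treatment and 11 in the rechallenge experiment alone. Tumor CDR3 length gave 3 calls by unique rearrangements.

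Single segments reversed, with a call under at least 1 of the settings, mostly when both CDR3s were kept, which adds TCRBJ02-03 and TCRBJ02-07 templates to the total. The values were then -3.71 (TCRBJ02-01) and 25.2 (TCRBJ02-03) for tumor against blood, -61.9 for TCRBJ02-03 in 1e9 tumors, -4.66, -2.79 and -4.85 (TCRBJ02-01, -02 and -05) in 1e9 day 7 blood, -4.82, -3.11 and -4.07 (-01, -04 and -05) for the day 0 to day 7 change, -0.976, -1.29 and -2.07 (-02, -04 and -05) for cured mice from day 65 to 73, -1.01 (-02) for cured against naive mice on day 73, and -2.37, -1.45, -1.78 and -2.67 (-01, -02, -04 and -05) for the change between these days. In against Out turned to 0.433 (TCRBJ02-01) and 0.519 (TCRBJ02-03) without TCRBJ02-07 and the Out rearrangements 1 base from In, and to -0.291 (TCRBJ02-04) without the latter alone. TCRBD02 differences turned to -2.06 (TCRBJ02-04) and -1.35 (TCRBJ02-05) with uncalled D in the denominator, and among Out to 0.285, 0.532 and 1.57 (TCRBJ02-03 to -05) without those 1 base from In. Why the other values moved was not tested. Mouse numbers did not pair animals of different arms (correlations of same-numbered mice between -0.209 and 0.0877), and the replicate block between arms changed no call. Libraries of few kept templates, down to 482, limit the shares of rare segments.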
